A study of Rattus norvegicus with 12 samples.

Results

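Egr1, Egr2, Fos, Jun and Junb are 5 immediate early genes that code for DNA-binding factors of the Egr and AP-1 families. They were followed across all libraries of a study of CD4+ T cells reactive to β-synuclein, a neuronal protein. The genes were chosen by their identifiers, which are ENSRNOG00000019422 for Egr1, ENSRNOG00000000640 for Egr2, ENSRNOG00000008015 for Fos, ENSRNOG00000026293 for Jun and ENSRNOG00000042838 for Junb, 5 of 32754 gene rows. The messenger RNA came from T cells of Lewis rats (strain LEW/Crl) sorted 3 days after intravenous transfer, with 3 libraries in each of 4 groups. The groups were b-syn TCR Tg cells, which carry a transgenic T cell receptor for β-synuclein, taken from the parenchyma (the brain tissue proper), from the meninges (its covering membranes) and from blood, and wild-type (wt) β-synuclein-reactive cells taken from blood. Wild-type cells of the brain compartments were not analysed here.

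An immediate early gene is switched on within minutes of a stimulus, without the need for new protein. In T cells, binding of the antigen receptor activates kinase cascades and calcium signals that act on factors already bound at these genes. Egr1 and Egr2 are zinc-finger factors, and Egr2 is also known as a brake on T cell activation and a factor of anergy in mouse T cells. Fos pairs with Jun or Junb through a leucine zipper to form AP-1, which binds next to NFAT at cytokine genes. Junb is the Jun family member best known in differentiating helper T cells, while Jun is also a target of stress kinases.

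Library totals ran from 16643832 to 38601400 counts. Levels are given as CPM, the count scaled to a library total of 1000000, and are not corrected for gene length. Levels are therefore compared between libraries and never between genes. The titles of the parenchyma libraries carry a digit 4 where those of all other libraries carry a 3. The study's design text gives day 3 for all libraries, those of the parenchyma among them. If the digit 4 marks a day all the same, tissue and day cannot be told apart in the comparisons with the parenchyma. Any step that isolated cells from brain tissue or meninges but not from blood cannot be told apart from the tissue either. Its part in the values of these quickly switched genes was not tested. The files hold no gene names for other genes, so that T cell markers, markers of other cell types and other immediate early genes were not analysed here. In bulk libraries, fewer cells that express a gene and less RNA of it per cell cannot be told apart.

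The stretches just before the start sites of Egr1, Egr2 and Junb, the 3 of the 5 genes that matched the RefSeq table of promoters (build GRCr8), are shown because the Egr genes shared an arrangement in them. Each line gives the 250 bases before the start site, 5′ to 3′ on the strand of the gene. The capitals mark CArG boxes, the sites known to bind serum response factor, and the letters ACGTCA, the core of a cyclic AMP response element. The Egr1 window lies at chr18:26736828-26737077 on the plus strand, that of Egr2 at chr20:21054442-21054691 on the minus strand and that of Junb at chr19:40080876-40081125 on the plus strand.
Egr1: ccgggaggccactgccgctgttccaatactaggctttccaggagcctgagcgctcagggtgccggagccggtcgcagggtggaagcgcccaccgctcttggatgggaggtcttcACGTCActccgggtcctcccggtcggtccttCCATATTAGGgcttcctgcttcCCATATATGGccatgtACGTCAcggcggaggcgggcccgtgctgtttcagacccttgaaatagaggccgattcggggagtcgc
Egr2: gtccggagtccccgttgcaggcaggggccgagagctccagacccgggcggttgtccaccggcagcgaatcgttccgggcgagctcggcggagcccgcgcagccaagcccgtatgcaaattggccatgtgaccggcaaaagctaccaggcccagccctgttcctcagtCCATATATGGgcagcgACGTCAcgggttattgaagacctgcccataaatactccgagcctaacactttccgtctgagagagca
Junb: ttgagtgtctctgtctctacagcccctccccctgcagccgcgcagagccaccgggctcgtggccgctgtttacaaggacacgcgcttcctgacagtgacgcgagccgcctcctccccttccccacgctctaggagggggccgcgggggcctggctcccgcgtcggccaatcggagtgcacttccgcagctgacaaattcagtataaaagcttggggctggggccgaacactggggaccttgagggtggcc

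Egr1 and Egr2 carried the same box, CCATATATGG, at the same distance, from 83 to 74 bases before the start site. In both, ACGTCA followed at 67 to 62 bases before it. Egr1 had another CArG box, CCATATTAGG, at 105 to 96 bases and another ACGTCA at 136 to 131 bases. Among 27457 windows of this length, searched on both strands, a CArG box was found in 1.5%, ACGTCA in 7.25% and both in 0.0838%. The marked sites do not overlap each other. The Junb window held neither. The letters TGANTCA of AP-1 sites, found in 6.36% of the windows, and GCGNGGGCG of Egr sites, found in 4.53%, occurred in none of the 3 windows. Such matches are descriptions of these letters and not sites or causes. The motifs were chosen after these promoters were seen, so the shares do not measure how unlikely the matches are. Without windows for Fos and Jun, the arrangement cannot be called particular to the Egr genes.

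The level of every gene in every library is plotted in the panels of CPM by group. In transgenic and wild-type blood, Egr1 and Fos were below 10 CPM and Egr2 below 0.5 CPM in every library. In the meninges and parenchyma, all 5 genes stood above every transgenic blood library. They did not all stand above wild-type blood. Its replicate 1, with 6.295 CPM of Fos, 115 of Jun and 464 of Junb, lay within the parenchyma range for these genes.

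**Figure D1:**
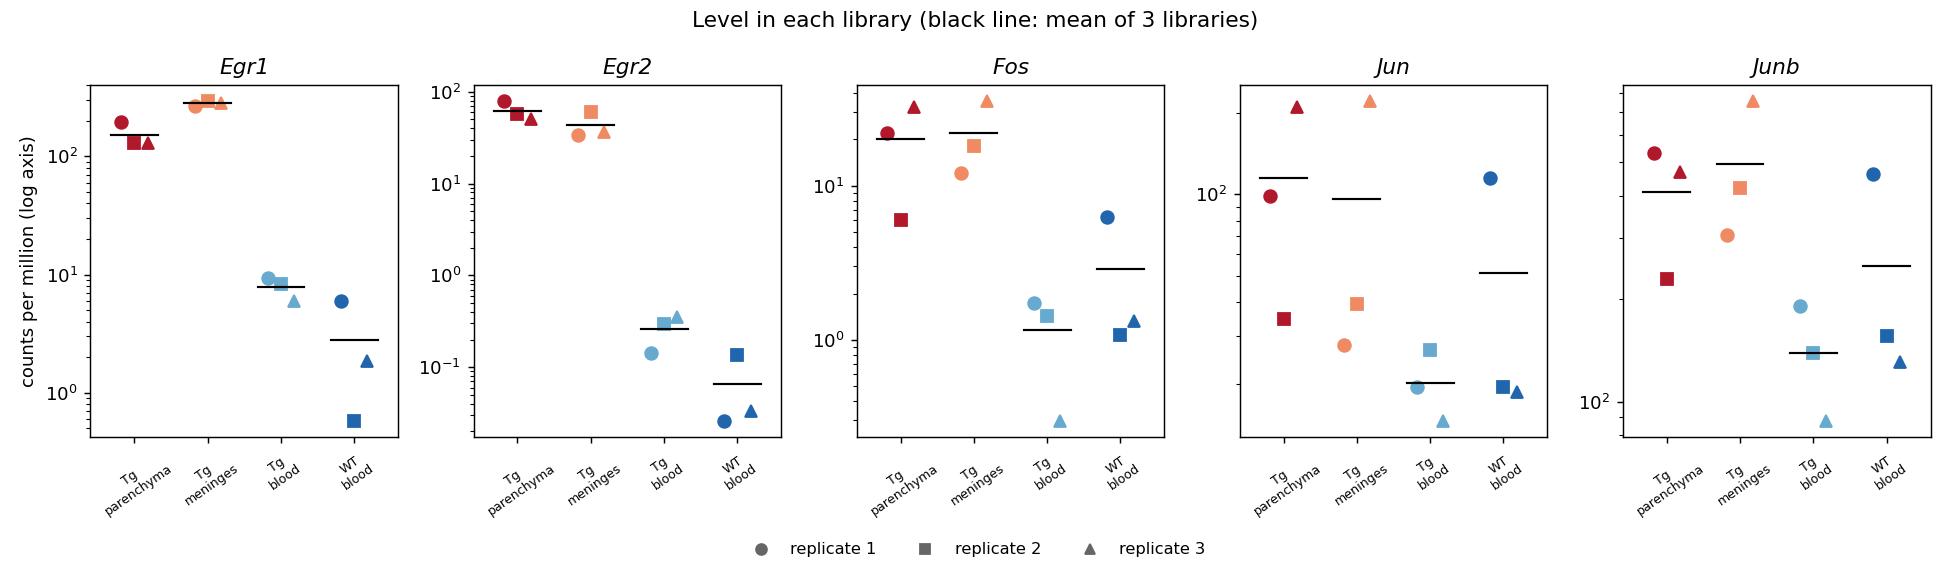
Level of each gene in each library in CPM, on a log axis, for transgenic parenchyma, transgenic meninges, transgenic blood and wild-type blood, with markers for the replicate and a black line for the mean of 3 libraries. Egr1 lies between 267 and 294 CPM in the meninges and between 5.94 and 9.28 CPM in transgenic blood, while Jun spans 27.7 to 221 CPM in the meninges.

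Transgenic cells of the meninges were compared with those of blood to ask what sets cells in the coverings of the brain apart from circulating ones. Egr1, Egr2, Fos and Junb rose in the meninges, and Jun did not pass the test. The 4 of 5 genes called stand beside a background of 6.51% of 11809 tested genes called in either direction and 4.76% called higher. All 5 genes passed the filter on low counts. Egr2 and Fos did so only through their counts in the brain compartments, so that the filter favoured a difference from blood in these genes. The counts of called genes and of genes without overlap, and the median that follows, are therefore descriptions and not read as support. The libraries of the groups did not overlap for any of the 5 genes, against 13.5% of tested genes without overlap and higher in the meninges and 18.6% lower. The median log2 fold change was 4.27 over the 5 genes, which is the value of Fos, and 0.0011 over all genes tested.

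Egr1 had 267, 294 and 285 CPM in the meninges, against 9.28, 8.37 and 5.94 CPM in transgenic blood. The meningeal libraries lay close together and far above all blood libraries. On the log2 scale the fold change was 5.21 (SE 0.23, adjusted p = 7.71e-06 by edgeR's quasi-likelihood test), about 37.0-fold. Its unadjusted p was at rank 1 of the 11809 genes and its fold change at rank 49.

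Egr2 had 33.6, 59.8 and 36.1 CPM in the meninges, against 0.141, 0.294 and 0.356 CPM in transgenic blood. The blood values rest on 3, 6 and 6 counts, while the meningeal libraries held between 790 and 1187 counts. Over the pooled counts Egr2 was 159-fold higher, with an exact binomial interval of 96.2 to 284 at 95% that covers counting error only. Its log2 fold change was 7.41 (SE 0.38, adjusted p = 1.42e-05 by edgeR), at rank 11 of all genes tested.

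Fos had 12.04, 18.2 and 35.6 CPM in the meninges, against 1.74, 1.42 and 0.297 CPM in transgenic blood. The groups did not overlap, but within each group the highest library was well above the lowest. Fos had a log2 fold change of 4.27 (SE 0.75, adjusted p = 0.00890 by edgeR). The call was lost without transgenic blood replicate 2 (log2 fold change 4.39, adjusted p = 0.0540) and with limma-voom (4.44, adjusted p = 0.0528).

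Junb had 307, 421 and 756 CPM in the meninges, against 190.5, 138 and 87.7 CPM in transgenic blood. Meningeal replicate 3 was the highest and blood replicate 3 the lowest. This gave a log2 fold change of 1.88 (SE 0.42, adjusted p = 0.0281 by edgeR). It lost its call without meninges replicate 2 (1.98, adjusted p = 0.0761), without meninges replicate 3 (1.44, adjusted p = 0.101), without blood replicate 2 (1.84, adjusted p = 0.114) and without blood replicate 3 (1.63, adjusted p = 0.108).

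Jun had 27.7, 39.5 and 221 CPM in the meninges, against 19.4, 26.6 and 14.5 CPM in transgenic blood. Meningeal replicate 3 stood far above the other meningeal libraries, and the lowest meningeal library was barely above the highest of blood. Jun had a log2 fold change of 2.31 (SE 0.83, adjusted p = 0.140 by edgeR). Without meninges replicate 3 it was 0.79 (adjusted p = 0.553).

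**Figure D2:**
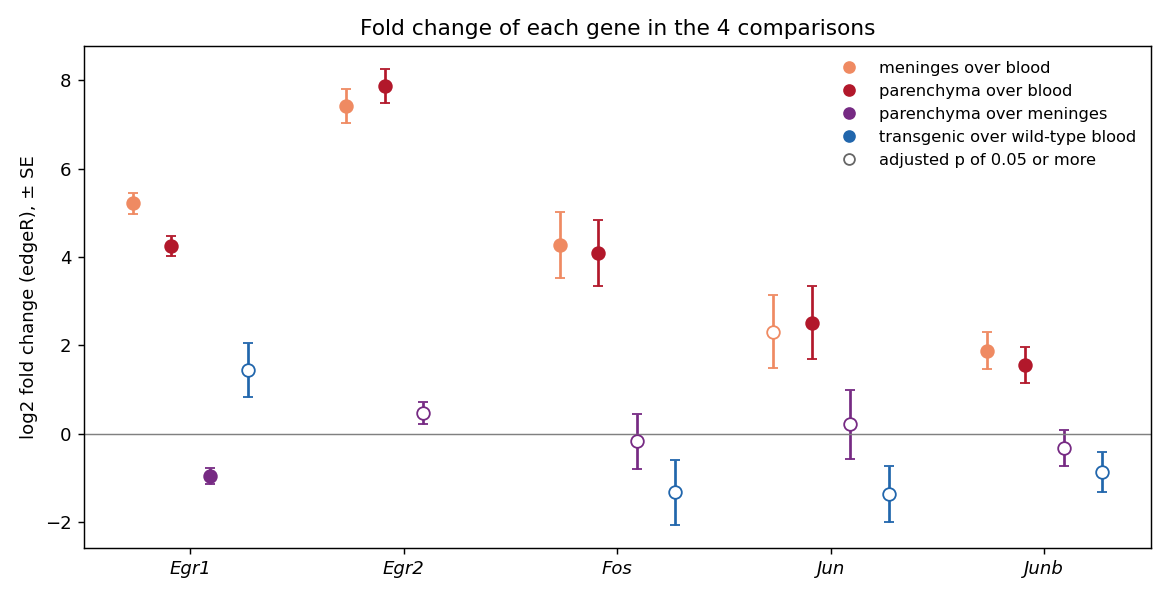
Log2 fold change of each gene in the 4 comparisons, fitted by edgeR, with bars for the SE, and open points for adjusted p of 0.05 or more. Egr2 has no point for transgenic over wild-type blood because its counts were below the filter there. The points of Egr1 and Egr2 against blood lie between 4.25 and 7.87 with SE of at most 0.39, and those of Jun carry SE of 0.83.

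Parenchyma and blood were compared to put the same question to cells within the tissue itself. All 5 genes were called higher in the parenchyma, in a comparison where 35.1% of 11809 genes were called in either direction and 18.7% called higher. Again Egr2 and Fos passed the filter through the brain compartments alone, and the counts and the median over the 5 genes are not read as support. None of the 5 genes had overlapping libraries, against 24.2% of tested genes without overlap and higher in the parenchyma and 21.8% lower. The median log2 fold change was 4.09 over the 5 genes, again the value of Fos, and 0.02 over all genes tested. This comparison shares the transgenic blood libraries with that of the meninges, so that the comparisons are not independent.

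Egr1 had 197, 129.6 and 129 CPM in the parenchyma, against 9.28, 8.37 and 5.94 CPM in transgenic blood. Its log2 fold change was 4.25 (SE 0.22, adjusted p = 3.25e-06 by edgeR), about 19.0-fold. Egr2 had 79.2, 56.7 and 50.9 CPM in the parenchyma, against 0.141, 0.294 and 0.356 CPM in transgenic blood. Egr2 had a log2 fold change of 7.87 (SE 0.39, adjusted p = 2.61e-06 by edgeR), and its pooled counts were 236-fold higher, with an interval of 143 to 423 for counting error. For both Egr genes replicate 1 was the highest parenchyma library, and every parenchyma library was far from every blood library.

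Fos had 22.0, 5.998 and 32.5 CPM in the parenchyma, against 1.74, 1.42 and 0.297 CPM in transgenic blood. Replicate 2 was the lowest parenchyma library and still stood above all blood libraries. For Fos the log2 fold change was 4.09 (SE 0.75, adjusted p = 0.00276 by edgeR). It kept its call in all 14 other settings run.

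Jun had 98.6, 34.5 and 211 CPM in the parenchyma, against 19.4, 26.6 and 14.5 CPM in transgenic blood. Replicate 3 was the highest and replicate 2 the lowest, not far above blood. For Jun the log2 fold change was 2.51 (SE 0.83, adjusted p = 0.0412 by edgeR), near the threshold. It was called in 6 of 14 other settings, and its adjusted p was 0.121 without parenchyma replicate 3 (log2 fold change 1.71), 0.0655 without parenchyma replicate 1, and 0.107, 0.0878 and 0.1296 without blood replicate 1, 2 and 3. It was 0.0930 with limma-voom and 0.0538 with all 12 libraries in 1 fit.

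Junb had 534, 229 and 468 CPM in the parenchyma, against 190.5, 138 and 87.7 CPM in transgenic blood. Its log2 fold change was 1.55 (SE 0.42, adjusted p = 0.0169 by edgeR). The call was lost without parenchyma replicate 1 (adjusted p = 0.0550), without blood replicate 2 (0.0592) and without blood replicate 3 (0.0655), where the log2 fold changes were 1.32, 1.51 and 1.29.

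**Figure D3:**
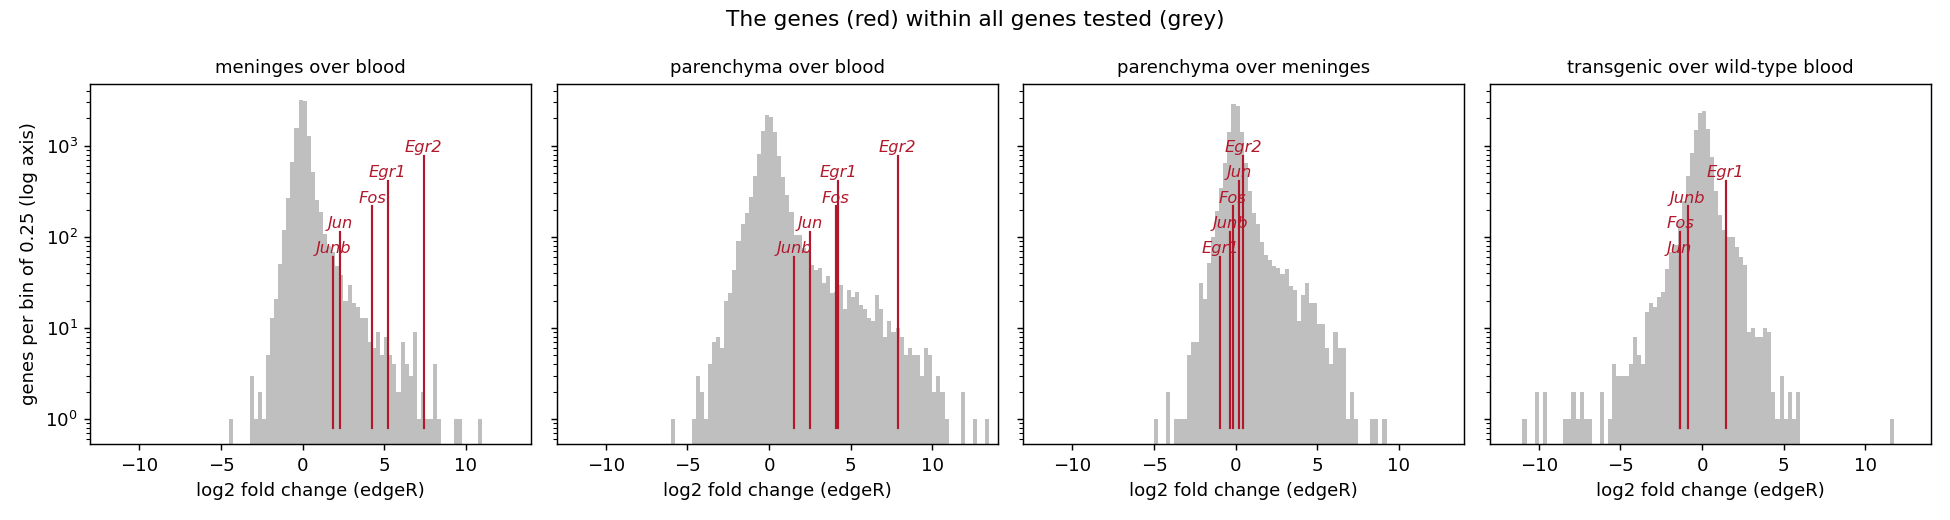
Histograms of the log2 fold changes of all genes tested (grey, bins of 0.25, log axis) in the 4 comparisons, with the genes marked by red lines whose heights only separate the names. In meninges over blood and parenchyma over blood all 5 genes lie right of the centre, between 1.55 and 7.87, and in parenchyma over meninges they lie between -0.96 and 0.47.

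Parenchyma and meninges were compared directly, since both came from transgenic cells and neither is a control. Egr1 fell in the parenchyma, and the other 4 genes were not called. This 1 of 5 stands beside 15.5% of 11809 genes called in either direction and 7.48% called lower. Egr1 was also the 1 gene without overlap, against 13.4% of tested genes without overlap and lower in the parenchyma and 21.1% higher.

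The mean of Egr1 was 152 ± 39.1 CPM over the parenchyma libraries, against 282 ± 14.1 CPM over the meningeal ones (SD, n = 3 each). Its log2 fold change was -0.96 (SE 0.19, adjusted p = 0.0110 by edgeR) and lay between -1.19 and -0.86 over 14 other settings. It was called in 13 of them. The exception was the fit of all 12 libraries (-0.96, adjusted p = 0.183). That fit adds the wild-type blood libraries, over which Egr1 ranged from 0.576 to 6.01 CPM.

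The mean of Egr2 was 62.3 ± 14.9 CPM over the parenchyma libraries, against 43.2 ± 14.5 CPM over the meningeal ones (SD, n = 3 each). Meninges replicate 2, at 59.8 CPM, lay within the range of the parenchyma. Egr2 had a log2 fold change of 0.47 (SE 0.25, adjusted p = 0.238 by edgeR).

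The means of Fos were 20.2 ± 13.3 CPM for parenchyma and 21.9 ± 12.2 CPM for meninges (SD, n = 3 each), with a log2 fold change of -0.17 (SE 0.62, adjusted p = 0.8797 by edgeR). Those of Jun were 115 ± 89.1 CPM for parenchyma and 96.2 ± 109 CPM for meninges (SD, n = 3 each), with a log2 fold change of 0.21 (SE 0.78, adjusted p = 0.885 by edgeR). Those of Junb were 410.3 ± 161 CPM for parenchyma and 495 ± 233 CPM for meninges (SD, n = 3 each), with a log2 fold change of -0.33 (SE 0.41, adjusted p = 0.633 by edgeR). For these AP-1 genes the replicates of each tissue lay further apart than the means of the tissues, so that differences of this size were not detectable. The sign of Fos turned without parenchyma replicate 2 (log2 fold change 0.25) or meninges replicate 3 (0.33). That of Junb turned without meninges replicate 3 (0.080), and that of Jun without parenchyma replicate 3 (-0.60), meninges replicate 1 (-0.26) or meninges replicate 2 (-0.18).

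A ratio of genes within a library does not depend on library size or scaling. For Egr2 counts per 100 Egr1 counts it was 40.2, 43.7 and 39.6 in the parenchyma, against 12.6, 20.3 and 12.7 in the meninges. The groups did not overlap, and the geometric mean of the ratio in the parenchyma was 2.78 times that in the meninges. In transgenic blood it was 1.52, 3.51 and 6, but with only 3 to 6 Egr2 counts per library. In wild-type blood it was 0.431, 23.8 and 1.79, from 1, 5 and 1 Egr2 counts, too few to read.

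Fos counts per 100 Junb counts were 4.12, 2.62 and 6.94 in the parenchyma and 3.92, 4.32 and 4.71 in the meninges, against 0.915, 1.03 and 0.339 in transgenic blood. Both brain compartments stood above blood without overlap, with geometric means 6.18-fold higher in the parenchyma and 6.31-fold higher in the meninges. Jun counts per 100 Junb counts averaged 26.2 ± 16.4 in the parenchyma and 15.9 ± 11.6 in the meninges, against 15.3 ± 4.67 in transgenic blood (SD, n = 3 each), and overlapped between all of them. With 3 libraries against 3, the smallest two-sided p of an exact permutation test is 0.1, reached by the differences of Egr2 to Egr1 in all comparisons of tissues and by those of Fos to Junb against blood. Adjusted over the 12 ratio comparisons, the exact permutation p was 0.24 for each of these.

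**Figure D4:**
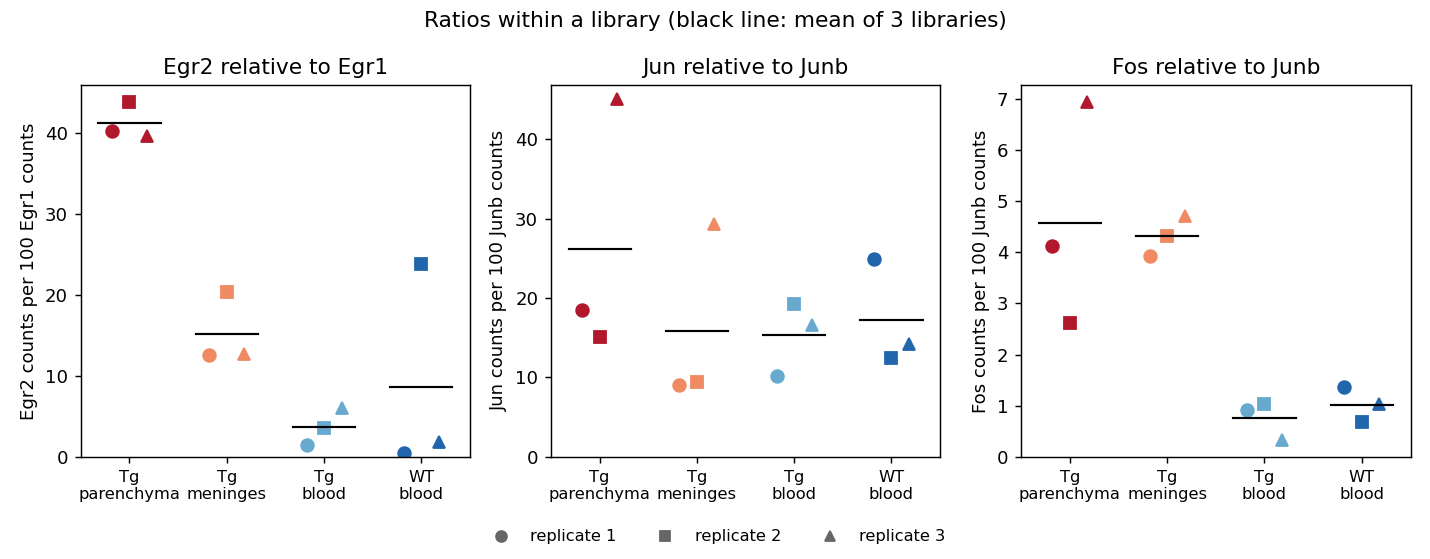
Counts of 1 gene per 100 counts of another within each library, with markers for the replicate and a black line for the mean of 3 libraries. Egr2 to Egr1 lies between 39.6 and 43.7 in the parenchyma and between 12.6 and 20.3 in the meninges, and the wild-type value of 23.8 rests on 5 Egr2 counts.

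Genotypes were compared in blood, the compartment in which both were measured. None of the genes was called: 0 of the 4 genes tested passed by edgeR or by DESeq2, 1 passed by limma-voom, and 1 had an unadjusted p below 0.05 by edgeR. Without the low-count filter edgeR called 3 genes, with Egr1 higher (log2 fold change 1.43, adjusted p = 0.0118) and Jun (-1.39, adjusted p = 0.0129) and Junb (-0.88, adjusted p = 0.0364) lower in transgenic blood. With the replicate number added to the fit, edgeR called 2 genes. These were Egr1, higher (log2 fold change 1.86, adjusted p = 0.0272), and Junb, lower in transgenic blood (-0.69, adjusted p = 0.0368). Of all 11618 tested genes, the main edgeR fit called 25.8% in either direction. Egr2 was below the filter, with 3, 6 and 6 counts in transgenic and 1, 5 and 1 counts in wild-type blood. The libraries overlapped for all 4 genes tested, while 23.6% of tested genes were without overlap and higher in transgenic blood and 20.2% lower.

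Egr1 had 9.28, 8.37 and 5.94 CPM in transgenic blood, against 6.01, 0.576 and 1.87 CPM in wild-type blood. Wild-type replicate 1 reached the level of the lowest transgenic library, and the other wild-type libraries were below all of them. Egr1 had a log2 fold change of 1.45 (SE 0.61, adjusted p = 0.108 by edgeR). Without wild-type replicate 1 it was 2.72 (adjusted p = 0.00273).

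Wild-type replicate 1 was also the highest wild-type library for Fos, Jun and Junb. Fos had 1.74, 1.42 and 0.297 CPM in transgenic blood, against 6.295, 1.07 and 1.34 CPM in wild-type blood, and its log2 fold change was -1.33 (SE 0.73, adjusted p = 0.203 by edgeR). Jun had 19.4, 26.6 and 14.5 CPM in transgenic blood, against 115, 19.4 and 18.6 CPM in wild-type blood, and its log2 fold change was -1.38 (SE 0.63, adjusted p = 0.135 by edgeR). Junb had 190.5, 138 and 87.7 CPM in transgenic blood, against 464, 155 and 130.1 CPM in wild-type blood, and its log2 fold change was -0.87 (SE 0.46, adjusted p = 0.186 by edgeR). The lower averages of transgenic blood rested on that library: without it the log2 fold changes were -0.027 for Fos, 0.080 for Jun and -0.044 for Junb, with adjusted p of 0.974, 0.813 and 0.919.

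The genes differed in how far replicates of 1 group lay apart. Jun spanned 6.10-fold between its highest and lowest library in the parenchyma, 7.99-fold in the meninges, 1.83-fold in transgenic blood and 6.21-fold in wild-type blood. Egr1 spanned 1.53-fold in the parenchyma, less than that in the meninges and 1.56-fold in transgenic blood, but 10.4-fold in wild-type blood. In the meninges the SD of log2(CPM + 0.5) was 0.073 for Egr1, 0.45 for Egr2, 0.77 for Fos, 1.59 for Jun and 0.66 for Junb, and the median was 0.14 over 8008 genes with a mean of at least 10 CPM there. Of these genes, 79.6% were spread at least as much as Egr1 and 0.0250% at least as much as Jun.

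Within a group, Fos and Jun tended to be high in the same library. In the parenchyma, the meninges and wild-type blood, 1 library was the highest for both. These were parenchyma replicate 3, meninges replicate 3 and wild-type replicate 1, each the deepest library of its group. In transgenic blood, Fos was highest in replicate 1 and Jun in replicate 2. Over the 5 genes and 4 groups, the highest library was the deepest in 12 of 20 cases, in 4 of 4 groups for Fos and in 0 of 4 for Egr2. Over all tested genes the highest library was the deepest in 28.5% to 32.2%, depending on the group. The 20 cases are not independent. They rest on 4 deepest libraries, and Pearson's r of log2(CPM + 0.5) over the 12 libraries was 0.84 for Fos and Jun, 0.95 for Fos and Junb and 0.89 for Jun and Junb. The 12 of 20 is therefore a description and shows no excess over the share of all genes. The part of depth in these values was not tested.

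**Figure D5:**
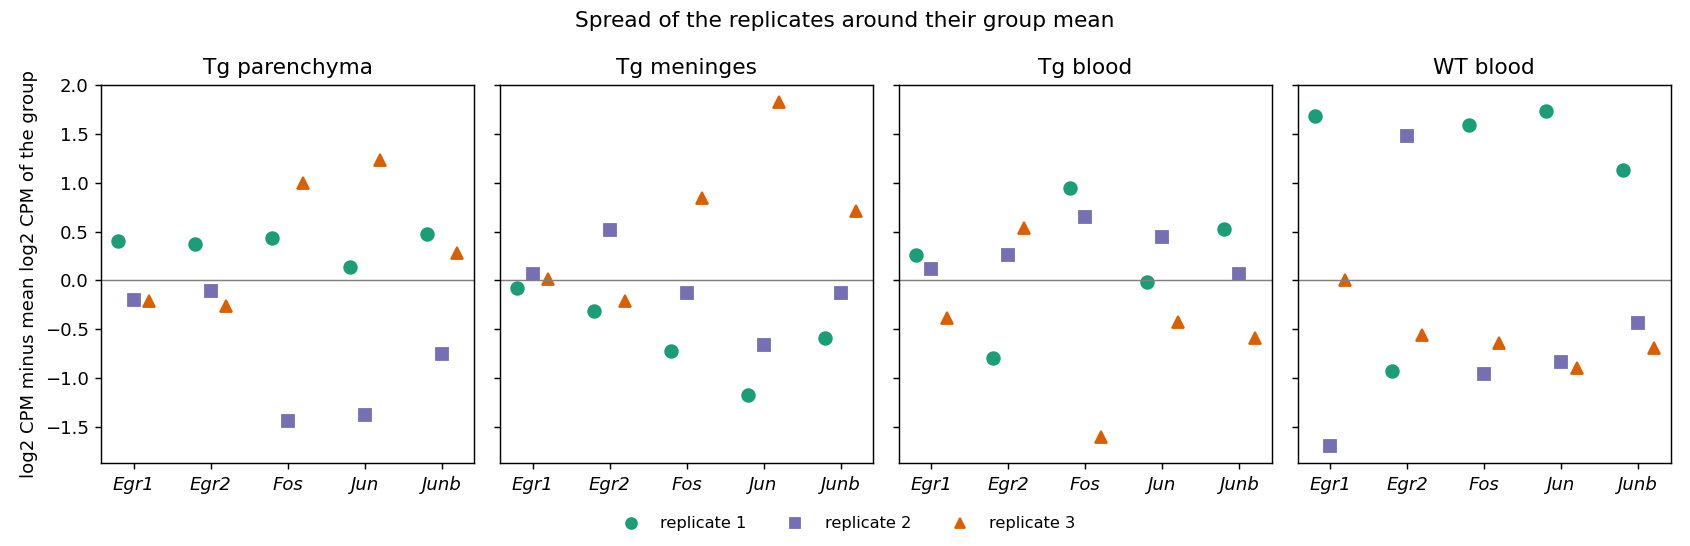
Log2 CPM of each library minus the mean log2 CPM of its group, for each gene and group, with markers and colours for the replicate. Jun, Fos and Junb are highest in replicate 3 in the meninges and in replicate 1 in wild-type blood, while Egr1 lies close to 0 in all libraries of the meninges.

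The order of the parenchyma libraries for Fos and Jun, but not for Egr1, Egr2 or Junb, was shared by another measure. A set of 77 genes, each with at most 3 counts per transgenic blood library and averaging 5 CPM or more over the parenchyma libraries, took 0.0581%, 0.0181% and 0.317% of the counts in parenchyma replicates 1, 2 and 3. In the meninges they took 0.0111%, 0.00776% and 0.00469%, lowest in replicate 3, where Fos and Jun were highest. In transgenic blood they took between 0.000316% and 0.000386%. That low share in transgenic blood, and a higher one in the parenchyma, follow from how the set was chosen. A gene could enter the set through a high level in a single parenchyma library, so the choice also favoured a lead of 1 library there. The shared order is therefore a description and not read as support, and Fos and Jun, which tended to rise together, do not count as separate matches. Egr1, Egr2 and Junb were highest in parenchyma replicate 1, where the set took 0.0581%. Without parenchyma replicate 3 the log2 fold changes over blood were 4.35 for Egr1, 7.99 for Egr2, 3.54 for Fos, 1.71 for Jun and 1.44 for Junb. With all libraries they were 4.25, 7.87, 4.09, 2.51 and 1.55. The adjusted p by edgeR without replicate 3 was 2.52e-06 for Egr1, 1.64e-06 for Egr2, 0.00414 for Fos, 0.121 for Jun and 0.0339 for Junb. Parenchyma replicate 1 stayed in that fit. The part of the set in the values of any of the 5 genes was not tested.

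Other genes followed the 5 genes with different closeness. The measure was Pearson's r of log2(CPM + 0.5) over the 12 libraries, among 8195 other genes with a mean of at least 10 CPM. It is given as a description, since the libraries of a group share their level. The closest gene reached 0.992 for Egr1 and for Egr2, 0.942 for Fos, 0.915 for Junb and 0.893 for Jun. The closest to Egr1 was ENSRNOG00000016866, at 112 ± 22.7 CPM in the parenchyma, 138 ± 8.53 CPM in the meninges, 39.97 ± 3.90 CPM in transgenic blood and 29.2 ± 5.44 CPM in wild-type blood (SD, n = 3 each). The closest to Egr2 was ENSRNOG00000049976, at 77.1 ± 30.4 CPM in the parenchyma, 66.2 ± 14.8 CPM in the meninges, 1.75 ± 0.679 CPM in transgenic blood and 1.01 ± 0.0974 CPM in wild-type blood. The files do not pair these identifiers with gene names.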

How the data were processed

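The authors deposited whole-number counts per gene, 1 file per library. The submitters' processing notes name build rn6 and, in no stated order, STAR 2.5, featureCounts 1.5.0-p1, FastQC 0.11.5, R 3.4.2, DESeq2 1.14.1 and bcl2fastq 2.17.1.14. With annotation and strand setting not given in the sources used here, antisense or overlapping genes could not be separated. Per the labels, a TruSeq and a low-input NEBNext kit were named without assignment to libraries. A kit that differed between groups cannot be told apart from the group.

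Titles and characteristics gave the groups and replicate numbers. No label says that replicates were separate animals, so the p-values cover only variation among these libraries, which may be technical. No replicates were duplicates (lowest chi-square per degree of freedom 14.8).

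Genes were tested two-sided with edgeR 4.0.16 in R 4.3.3 (filterByExpr with a minimum count of 10, TMM, quasi-likelihood test, Benjamini-Hochberg adjustment over all genes tested, threshold 0.05). The tissue fit held the 9 transgenic libraries and the genotype fit the 6 blood libraries. The SE is the log2 fold change divided by the square root of F. Scripts were tested on simulated data. DESeq2 1.42.0 and limma 3.58.1 served as alternatives.

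The 5 genes, their names and the planned lists were chosen with earlier results of these data known, and the motifs after the promoters were seen. The reference held 0 rat Ensembl identifiers, so the lists (related factors, activation genes, cell type markers) were not analysed here. Named genes were the 5 genes and, for each, the 3 most like it, of which 2 in all are printed.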

Additional observations from a re-analysis of the deposited data

How the results depend on the processing

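Over the alternatives, Egr1 and Egr2 kept their calls against blood in all 14 settings of each comparison. In meninges over blood, where 769 genes were called, DESeq2 called 1333 and a fit of only the groups compared called 1255. With 1 library left out, 346 to 606 genes and 2 to 4 of the 5 genes were called there, 3298 to 4416 genes and 3 to 5 of the 5 in parenchyma over blood, 730 to 2159 genes and 1 of the 5 in parenchyma over meninges (1828 with all libraries), and 1789 to 2906 genes and 0 to 1 of the 4 tested in transgenic over wild-type blood (3002 with all libraries). Leaving out 1 library gave log2 fold changes in parenchyma over meninges of -0.72 to 0.33 for Fos, -0.60 to 1.68 for Jun and -0.59 to 0.080 for Junb, and of -1.79 to 0.080 for Jun in transgenic over wild-type blood. With all 12 libraries in 1 fit, 0 of the 5 genes were called in parenchyma over meninges. In transgenic over wild-type blood, 3 genes were called without a low-count filter (Egr1 higher, Jun and Junb lower) and 1, Egr1, with limma-voom. With the replicate block it was 2, Egr1 higher (log2 fold change 1.86, adjusted p = 0.0272) and Junb lower (-0.69, adjusted p = 0.0368). The replicate block also ended the calls of Junb in meninges over blood (adjusted p = 0.0512) and of Jun in parenchyma over blood (adjusted p = 0.0655). Deviations of libraries with the same number correlated across genes at -0.29 to 0.49, below 0.1 in at least 1 pair of every comparison. The numbers were therefore not taken as pairs in the main fits. The titles of the transgenic libraries carry the same numbers in every tissue, and such correlations over 3 libraries per group cannot exclude a link. The cause of the shifts in calls was not tested. Egr2 in blood rests on 1 to 6 counts per library, which limits how precisely its level there can be given.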
